A study of Homo sapiens with 18 samples.

Results

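In untransformed MCF10A-ErSrc cells, 985 of the 10284 RNA polymerase II (RNAPII) promoter peaks that could be compared became at least 1.5 times wider after incubation with triptolide (TPL), and these widened peaks and the RNA of their genes are described here. MCF10A-ErSrc is a human breast epithelial line that carries a v-Src kinase fused to a hormone-binding domain, so that tamoxifen switches the oncoprotein on and transforms the cells. Tamoxifen (2 µM) was given to the TAM cultures and withheld from the NT cultures, and DMSO or a single dose of TPL was then applied to each for 4 h. All groups carry the same v-Src fusion and differ only in these agents. RNAPII was mapped by ChIP-Seq and RNA was measured by RNA-Seq, both in 2 biological replicates per group, but the ChIP-Seq data come as 1 list of peaks per condition, which may hold 1 replicate only.

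The peaks were taken from the NT list of 11222 promoter peaks. Peaks of 3000 bp or more (376) and peaks under 3000 bp that hold canonical protein-coding transcription start sites (TSSs) on both strands (562) were left out, and a widened peak is one whose overlapping NT + TPL peaks sum to at least 1.5 times its NT width. Of the 10284 eligible peaks, 985 were widened (9.58%), 6101 kept an overlapping peak of less than that width and 3198 had no overlapping NT + TPL peak. The widened peaks were thus chosen by their NT and NT + TPL widths, and these are given only as a description. The rule took CALM2 (1898 to 2847 bp, a ratio of exactly 1.5) and UIMC1 (902 to 1355 bp, 1.5022) just inside the threshold and left TRIM37 (505 to 757 bp, 1.4990), LGMN (315 to 472 bp, 1.4984) and VRK3 (297 to 445 bp, 1.4983) just outside it. The other peak at the threshold held no coding TSS and is not named.

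RNAPII is loaded at promoters by the general transcription factors. TFIIH, which opens the DNA with its XPB subunit and phosphorylates the polymerase tail with CDK7, completes that assembly. The polymerase then commonly pauses shortly after the TSS until P-TEFb releases it into the gene. TPL binds XPB and blocks its ATPase, and is used as a general inhibitor of transcription initiation. A promoter peak is a stretch in which ChIP reads exceed the input by the caller's cutoff, so its width is a length along the DNA and not an amount of polymerase.

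The promoters of 4 genes at widened peaks are shown because they are near the top of the rankings by width ratio in NT cells (ISY1-RAB43), by width ratio in TAM cells (NDUFC1 and UBB) and by rise of RNA (FAM222A). Each runs 5′ to 3′ on the strand of the gene, from 250 bases before the TSS to 50 bases from it on, in the GRCh37 (hg19) reference. The windows are chr3:128879830-128880129 on the minus strand, chr4:140223582-140223881 on the minus strand, chr17:16284155-16284454 on the plus strand and chr12:110151380-110151679 on the plus strand. Capitals mark matches on either strand to the TATA box (TATAAA), the CCAAT box (CCAAT), the GC box (GGGCGG), the E-box (CACGTG), the CRE (TGACGTCA), the AP-1 site (TGACTCA) and the ETS core (CCGGAA). The NRF1 site was also searched and matched none of them.
ISY1-RAB43: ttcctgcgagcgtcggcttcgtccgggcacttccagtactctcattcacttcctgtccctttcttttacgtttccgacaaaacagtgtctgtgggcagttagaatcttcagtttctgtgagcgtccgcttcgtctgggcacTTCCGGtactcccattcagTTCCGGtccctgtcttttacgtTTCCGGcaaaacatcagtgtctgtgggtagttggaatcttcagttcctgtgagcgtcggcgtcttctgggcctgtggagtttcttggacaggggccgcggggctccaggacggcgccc
NDUFC1: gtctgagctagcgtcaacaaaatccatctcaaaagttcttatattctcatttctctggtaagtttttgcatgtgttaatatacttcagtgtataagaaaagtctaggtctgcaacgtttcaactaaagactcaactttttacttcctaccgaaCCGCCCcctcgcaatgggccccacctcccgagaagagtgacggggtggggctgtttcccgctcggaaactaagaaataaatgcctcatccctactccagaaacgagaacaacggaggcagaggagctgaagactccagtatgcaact
UBB: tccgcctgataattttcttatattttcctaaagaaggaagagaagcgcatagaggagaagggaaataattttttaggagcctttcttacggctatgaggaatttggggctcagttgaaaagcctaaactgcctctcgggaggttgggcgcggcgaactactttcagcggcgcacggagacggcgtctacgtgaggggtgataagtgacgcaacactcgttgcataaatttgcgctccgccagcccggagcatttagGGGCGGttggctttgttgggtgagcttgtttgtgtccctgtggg
FAM222A: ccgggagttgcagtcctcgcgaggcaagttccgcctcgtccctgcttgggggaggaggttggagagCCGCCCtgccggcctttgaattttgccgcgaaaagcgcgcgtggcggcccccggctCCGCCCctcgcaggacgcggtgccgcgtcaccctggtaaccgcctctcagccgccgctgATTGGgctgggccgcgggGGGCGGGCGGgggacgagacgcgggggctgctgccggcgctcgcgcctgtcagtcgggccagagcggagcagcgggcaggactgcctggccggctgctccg

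FAM222A carried 5 matches, a CCAAT box and GC boxes of which a pair overlap, at 74.7% GC. UBB, which encodes polyubiquitin, and NDUFC1, a subunit of respiratory complex I, had 1 GC box each at 51% and 45.7% GC. The ISY1-RAB43 promoter held 3 ETS cores at 55.7% GC.

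Over all 740 canonical coding promoters in the widened peaks, the median GC content was 63% (interquartile range 57.7 to 68.3%). It was 66.7% over 5514 promoters of peaks kept without widening, 71% over 1695 promoters of peaks with no NT + TPL peak and 67% over all 7949 eligible promoters. The CCAAT box was present in 48.4% of the widened promoters against 36.9% of all eligible ones, the ETS core in 296 of the 740 against 33.9% and the GC box in 72.3% against 78.6%. For the TATA box the shares were 4.86 and 4.01%, for the E-box 9.46 and 11.1%, for the CRE 4.19 and 3.66%, for the AP-1 site 1.76 and 2.4%, and for the NRF1 site 2.97 and 2.86%. The order held for the CCAAT box in the window from 500 bases before to 500 bases after the TSS, where 73.4% of widened and 60.9% of all eligible promoters had a match. In the window from 250 bases before the TSS, promoters of kept peaks had the CCAAT box in 37.5% and the GC box in 77.4%. They had the ETS core in 2092 of 5514 (37.9%), close to its share in the widened promoters. Promoters of peaks with no NT + TPL peak had the ETS core in 18.3%, which lowers the share over all eligible ones. These shares are descriptions of letters in a window and were not tested, and GC content differs between the sets beside them.

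Of the 985 widened peaks, 704 held a canonical protein-coding TSS, 53 held only a canonical TSS of another gene type and 228 held none. Among those 228, the TSS of another transcript lay in 74, 165 lay inside a protein-coding gene, and the nearest canonical coding TSS was a median of 332 bp away. In 176 of the 228, the wider NT + TPL peak reached over a canonical coding TSS that the NT peak had not held. Such a TSS may lie in a neighbouring NT peak under the same NT + TPL peak, which was not counted here.

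The widened peaks were narrow ones in NT cells. Their NT width had a median of 364 bp (interquartile range 287 to 549 bp, range 149 to 2588 bp), against 751 bp for peaks kept without widening and 597 bp for all eligible peaks. With TPL the median was 883 bp in the widened set, with a median ratio of 2.03 (interquartile range 1.69 to 2.81, highest 19.3) and a median gain of 449 bp. In the kept set the median fell from 751 to 540 bp, a ratio of 0.811.

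The widening took 2 forms. In 426 of the 985 (43.2%) the NT + TPL peak also overlapped another NT peak, against 103 of the kept peaks (1.69%). In 414 of these the NT + TPL peak ran over 2 NT peaks and in 12 over 3, with a median of 111.5 bp between them. Their width rose from a median of 346 to 1072 bp, but against the summed width of the NT peaks under it the NT + TPL peak was a median of 1.2 times as wide, and against their full span 1.04 times. Only 73 of the 426 still reached 1.5 times the summed NT width, so that 632 of 985 would remain if neighbours were counted together. The joined peak held coding TSSs on both strands in 158 cases, on 1 strand in 250 and none in 18. The remaining 559 widened peaks each had an NT + TPL peak over a single NT peak and went from a median of 376 to 745 bp, a ratio of 1.78. These 2 sets are called joined and single below.

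**Figure D1:**
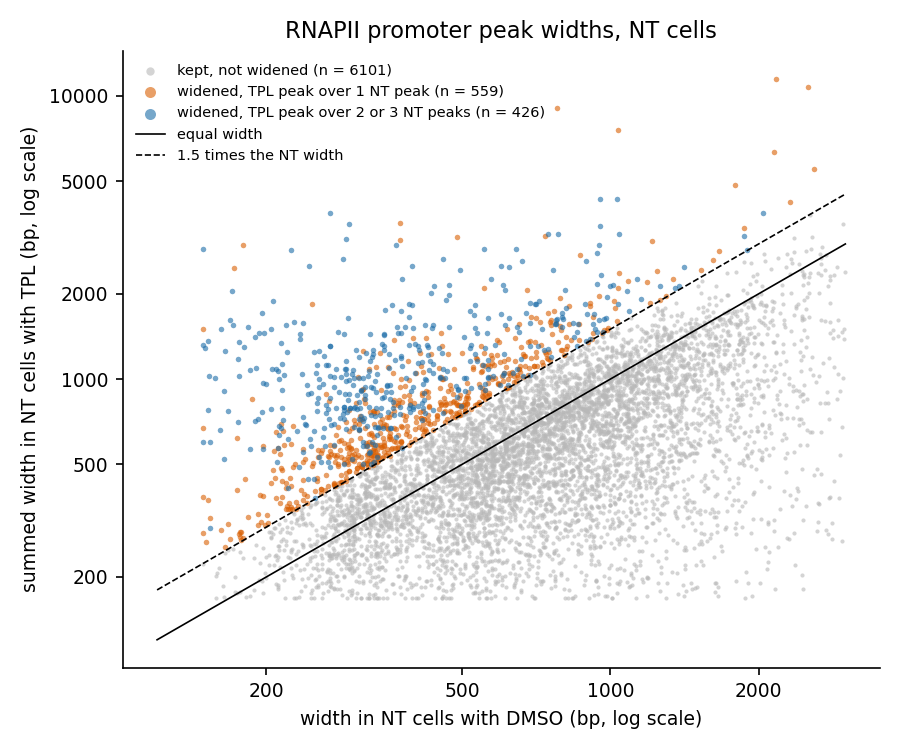
Width of each eligible RNAPII promoter peak in NT cells with DMSO (horizontal, bp, log scale) against the summed width of the overlapping NT + TPL peaks (vertical, bp, log scale); each point is a peak with an overlapping NT + TPL peak, the solid line marks equal width and the dashed line 1.5 times. The 559 single (orange) and 426 joined (blue) peaks lie above the dashed line by construction, the joined ones higher at a median ratio of 2.70 against 1.78, and the 6101 kept peaks (grey) lie below it.

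The NAA15 and NDUFC1 promoters show the joined form. NAA15, the auxiliary subunit of the N-terminal acetyltransferase NatA, had an NT peak of 922 bp at chr4:140222048-140222969 and NDUFC1, read from the opposite strand, one of 771 bp at chr4:140223037-140223807. A single NT + TPL peak of 1571 bp covered both, which is 0.93 times their summed NT width. HSPE1, a mitochondrial chaperonin, went from 572 to 2263 bp in this way and STT3A, of the oligosaccharyltransferase, from 426 to 1295 bp, at 0.53 and 0.94 times the summed width. ISY1-RAB43, a readthrough gene whose RNA cannot be separated from that of its parts, went from 228 to 1596 bp at 0.68 times the summed width. ARID4B, a subunit of a histone deacetylase complex, was widened by either count, from 366 to 2983 bp, 2.27 times the summed NT width. ANKRD11, a chromatin regulator, went from 396 to 2516 bp (3.93 times the sum), GTPBP2, a GTPase, from 457 to 2661 bp (3.58 times) and DDIT3, the stress factor CHOP, from 553 to 2879 bp (2.14 times).

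Single peaks gave the largest gains in bp. SRSF7, an SR splicing factor, had the widest, from 2167 bp at chr2:38976592-38978758 to 11493 bp, with the downstream edge moving from 1911 to 11265 bp after the TSS of a gene of 7763 bp. RPS15, a ribosomal protein, went from 2151 to 6317 bp over a gene of 2100 bp. The NT + TPL peak reached past the end of the canonical transcript in 6 genes, 3 at single and 3 at joined peaks. Besides SRSF7 and RPS15 these were TMEM223, SLC35B2, EIF4EBP3 and NDUFAF3. The next largest gains lay at peaks with no canonical coding TSS, of 8257 bp near EIF4G2, 8192 bp in DGAT1 and 6560 bp in PNPLA2. CARHSP1, which encodes an RNA-binding protein, went from 489 to 3174 bp as a single peak.

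Next, the position of the gain around the TSS was measured in the 672 widened peaks with exactly 1 canonical coding TSS. In NT cells these peaks ran from a median of -126 to 229 bp around the TSS, and with TPL from -367 to 425 bp. The median gain was 140 bp upstream and 172.5 bp downstream, and 518 of 672 (77.1%) extended on both sides. The gain was larger downstream in 345 (51.3%). Of 451 single peaks, 305 (67.6%) gained more downstream, with medians of 93 bp upstream and 216 bp downstream. Of 221 joined peaks, 40 (18.1%) did, with 461 bp upstream and 76 bp downstream. These edges are the ones the peaks were chosen by. In TAM cells, which the rule did not use, the downstream lead of the single peaks was not seen, since 202 of 385 (52.5%) gained more downstream, with medians of 63 bp upstream and 68 bp downstream. Of 185 joined peaks in TAM cells, 28.6% gained more downstream, with 138 and 47 bp, and over all 570 widened peaks the share was 44.7%. For the kept peaks in TAM cells it was 58.5% (2725 of 4658), with median gains of -12 bp upstream and 11 bp downstream. In NT cells both edges of the 5172 kept peaks drew inward by similar amounts, with median gains of -48 bp upstream and -47 bp downstream, and the share was 48.9%. The downstream edge lay more than 1000 bp from the TSS in 60 widened peaks (8.93%) with TPL and in 6 without it, and in 199 (3.85%) and 505 of the kept peaks.

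**Figure D2:**
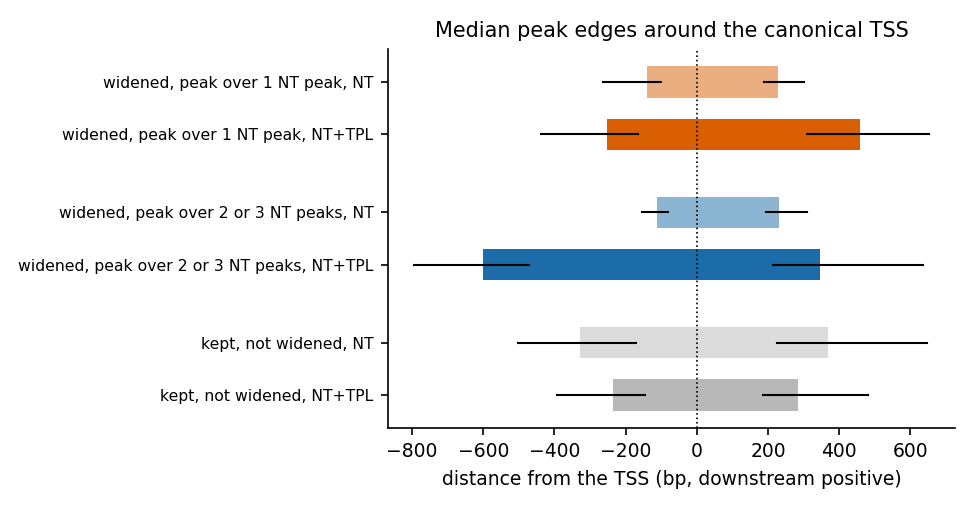
Median upstream and downstream edges of peaks with 1 canonical coding TSS, in bp from the TSS (horizontal, downstream positive), in NT cells with DMSO (pale) and with TPL (dark); black lines are the interquartile ranges of each edge over peaks. Single peaks ran from -140 to 228 bp and then from -252 to 458 bp, joined peaks from -113 to 231 bp and then from -601 to 345 bp, and kept peaks from -327 to 369 bp and then from -236 to 284 bp.

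TAM cells give the same measure in cultures that the rule did not use. Of the 985 widened peaks, 799 (81.1%) overlapped a TAM peak, and in 412 of these 799 (51.6%) the TAM + TPL width was at least 1.5 times the TAM width. The background was 1300 of 8631 eligible peaks with a TAM peak (15.1%), and among the peaks kept in NT cells 846 of 5809 (14.6%). The median TAM ratio was 1.53 in the widened set and 0.956 in the kept set. Peaks single in NT cells passed in 232 of 480 (48.3%) and those joined in NT cells in 180 of 319 (56.4%). The TAM + TPL width was set against only the TAM peaks that overlap the NT peak. Joining of neighbouring TAM peaks was not counted, so these shares may take it in. Another 112 of the 186 widened peaks with no TAM peak had a TAM + TPL peak, and 92.4% of those with a TAM peak also had one with TPL.

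The same shares were taken within bands of NT width. Within NT widths of 251 to 350 bp, 53.3% of 246 widened and 21.3% of 469 kept peaks passed, and within 501 to 750 bp the shares were 49.1% of 161 and 14.1% of 1534. Over the 6 width bands the widened peaks ranged from 41.6 to 57.9% and the kept peaks from 11.2 to 21.3%. Across the 799 widened peaks the NT and TAM ratios had a Spearman's rank correlation of 0.208, given as a description since the peaks share their libraries. Without TPL, the TAM peak was narrower than the NT peak in most cases, at a median of 0.769 times the NT width in the widened and 0.704 times in the kept set.

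There is 1 list per condition, so no spread between replicates stands behind any width, and no test of widths was made. The only inputs are 1 library of NT and 1 of TAM cells, both without TPL, so the TPL lists have no input of their own condition. The effect of this on the width ratios was not tested. The peak names carry a cutoff of 0.02 in the NT, NT + TPL and TAM + TPL lists and of 0.1 in the TAM list, where 41.5% of names also end in a letter, and each list carries a single library number, so the widths may come from 1 of the 2 ChIP replicates. The effect of that cutoff, or of any split of TAM peaks behind the letters, on the TAM ratios was not tested.

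**Figure D3:**
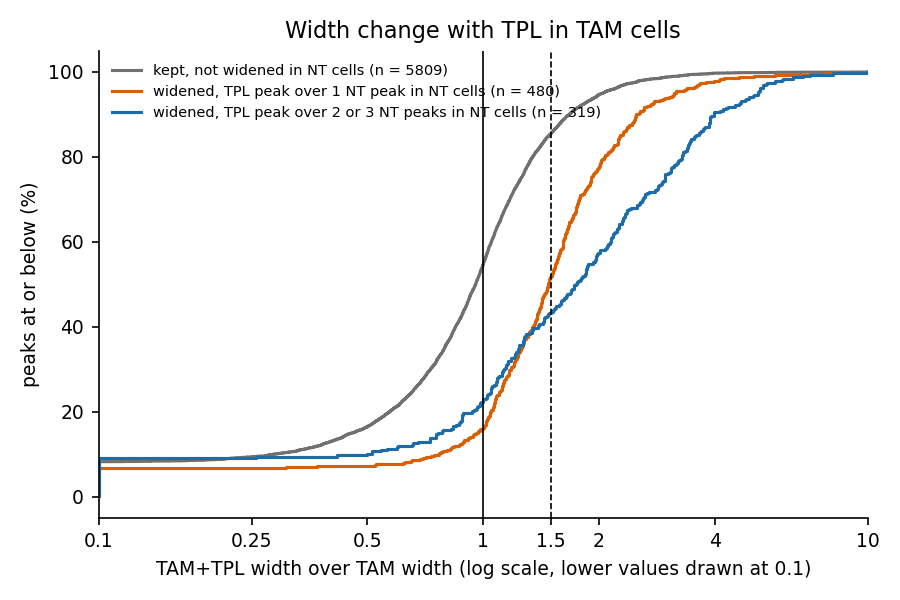
Cumulative share of peaks (vertical, %) at or below a given TAM + TPL width over TAM width (horizontal, log scale; peaks with lower ratios or no TAM + TPL peak drawn at 0.1), for peaks single (orange), joined (blue) or kept without widening (grey) in NT cells; the solid line marks equal width and the dashed line 1.5. Apart from the far left, where the share with no TAM + TPL peak is similar in all, the single and joined curves lie to the right of the kept curve, with medians of 1.48, 1.75 and 0.956.

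Several widened peaks gained more in TAM cells than in NT cells, without regard to joining in TAM cells. UBB went from 777 bp at chr17:16284110-16284886 to 1573 bp in NT cells and from 564 to 4370 bp in TAM cells. PSMD11, a proteasome subunit, went from 364 to 1378 bp and from 208 to 1468 bp. NDUFC1 had the largest TAM ratio, 12.6, from a TAM peak of only 133 bp to a TAM + TPL width of 1670 bp. That width is also the one for NAA15, whose TAM peak was 443 bp, so it counts for both promoters. AP1G1, of the clathrin adaptor AP-1, went from 147 to 845 bp in TAM cells, STT3A from 223 to 1217 bp and PSMG2, a proteasome assembly factor, from 171 to 915 bp. SRSF7 widened far less in TAM cells, from 1221 to 2047 bp, and RPS15 did not, at 1159 and 1134 bp. CARHSP1 went from 577 to 478 bp.

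RNA was then examined for the 737 genes with a canonical coding TSS in a widened peak. Of these, 705 had an entry in the RNA-Seq files and 699 passed edgeR's filter on low counts, so that no count below covers all 737. Totals of the expected counts (reads per gene as RSEM estimates them) lay between 7461309 and 8349448 per library. Of 8 markers of basal mammary epithelium, 7 were at 1 FPKM (fragments scaled to transcript length and library size) or more in all 8 libraries, the exception being TP63. So were 4 of 5 luminal markers, the exception being PGR, with a summed level of 536 to 947 FPKM. Among them was ESR1, at 199.65 and 248.49 FPKM in the NT libraries. Whether its reads come from the hormone-binding domain of the v-Src fusion was not tested. The summed level over the libraries was 0.46 to 1.73 FPKM for 3 endothelial markers (CDH5 at 0), 7.19 to 19.9 for 4 immune markers, mostly CD14, and 4.21 to 12.9 for 4 fibroblast markers, mostly DCN and COL1A1. The summed level of the basal markers was mostly KRT5, KRT17 and KRT6A. It was lower with TPL, at a mean of 12327 against 17935 FPKM in NT cells and 4099 against 7673 in TAM cells. ITGB4 was higher with TPL in both kinds of cell, at 723.82 and 532.83 against 365.73 and 392.77 FPKM in NT cells. CDH1 and LAMA3 were higher with TPL in TAM cells. The part of these changes in the results was not tested. In bulk RNA, fewer cells of a type and less RNA per cell cannot be told apart, and poly-A RNA does not separate new from older transcripts.

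Calls were made with edgeR's quasi-likelihood test over 16948 genes, requiring an adjusted p no higher than 0.001 and a change of 1.2 or more on the log2 scale. With TPL in NT cells, 20 of 699 genes at widened peaks rose (2.86%) and 6 fell (0.858%). The background was 1.22% and 2.71% of all genes tested, 1.37% and 3.98% of 7589 genes at eligible peaks, and 1.48% and 3.32% of 5267 genes at kept peaks. The median log2 fold change was 0.00 at widened peaks, 0.09 over all genes, -0.22 at kept peaks and -0.41 at peaks with no NT + TPL peak. In TAM cells 16 rose (2.29%) and 5 fell (0.715%), against a background of 0.844% and 2.04% of all genes, 0.843% and 2.81% at eligible peaks and 0.911% and 2.2% at kept peaks. Most rises were at single peaks: 19 of 463 tested genes in NT cells and 16 in TAM cells, against 1 and 0 of 236 genes at joined peaks, whose falls numbered 3 and 2. This split was not tested.

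These counts depend on the strict threshold and on the libraries in the fit. Leaving out a library could lower the calls over all genes too, in some cases for a library outside the contrast. In NT cells, leaving out any 1 of the 8 libraries moved them by more than 1.5 times, to 12 rises and 2 falls without NT + TPL replicate 1, 2 and 0 without NT + TPL replicate 2, and 0 of either without any of the other 6. In TAM cells, leaving out an NT + TPL library left 15 or 16 rises and 5 falls, and leaving out an NT, TAM or TAM + TPL library left 0 of either. At an adjusted p of at most 0.05 with the same fold, 56 genes rose (8.01%) and 53 fell (7.58%) in NT cells, against 9.78% and 11.3% of all genes, 5.1% and 15.4% at eligible peaks and 4.97% and 13.6% at kept peaks. In TAM cells 40 rose (5.72%) and 39 fell (5.58%), against 9.05% and 10.1% of all genes, 3.97% and 13.8% at eligible peaks and 4.16% and 11.6% at kept peaks. With a library left out, the NT counts at this level lay between 43 and 53 rises and 40 and 58 falls, and the TAM counts between 30 and 41 rises and 25 and 40 falls. The 25 falls came without TAM + TPL replicate 1. At 0.05 the share of rises lay below that of all genes and above that of eligible peaks, while the share of falls lay below all of these backgrounds.

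In both NT and TAM cells 15 genes were called up and 3 down. The same overlap over all genes tested is not given here, so these counts are not read as particular to widened peaks. RND1, a small GTPase, had 0.15 and 0.07 FPKM in the NT libraries and 7.29 and 9.54 with TPL, which is at least 37.9-fold higher against a floor of 3 counts per library, and 0.43 and 0.22 rose to 11.34 and 9.07 in TAM cells. Its peak was 197 bp and 387 bp with TPL, and in TAM cells a peak was listed only with TPL. FAM222A rose from 0.35 and 0.31 to 28.21 and 15.76 FPKM in NT cells (6.03 on the log2 scale, SE 0.357, adjusted p = 0.000197), while its peak went from 258 to 408 bp. VAMP1, a vesicle SNARE, had 5.12 and 5.21 FPKM in NT cells and 86.23 and 72.58 with TPL (log2 4.04, SE 0.239, adjusted p = 0.000197), with a like rise from 5.05 and 4.35 to 85.25 and 61.4 in TAM cells. No TPL library of these genes overlapped a DMSO library.

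TLE4, a Groucho family corepressor, rose from 1.88 and 2.65 to 37.41 and 30.23 FPKM in NT cells (log2 3.90, SE 0.200, adjusted p = 0.000192), and its peak went from 377 to 675 bp in NT and from 264 to 1003 bp in TAM cells. TNFSF9, a TNF family ligand, rose from 4.49 and 3.19 to 52.46 and 52.26 FPKM in NT cells and from 8.71 and 10.09 to 52.27 and 44.73 in TAM cells. MARCHF3, an E3 ubiquitin ligase, rose from 0.26 and 0.29 to 4.61 and 5.79 FPKM in NT cells, again with a peak listed in TAM cells only with TPL. HBEGF, a ligand of the EGF receptor, and NXF1, the mRNA export receptor, rose in both kinds of cell, by 3.28 and 2.85 on the log2 scale in NT and 3.50 and 2.34 in TAM cells. The other genes called up in both were TM7SF2, CSRNP2, TRNAU1AP, ZSWIM6, EPHX1, OAT and TNRC6B, by between 1.72 and 2.54 in NT cells. SERTAD1, SHPK, KLHL26, STMN1 and PFKFB3 were called up in NT cells alone, which does not by itself show that they differ between the cells.

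SRSF7 had the largest called fall in NT cells, and in TAM cells KAT5 and RPUSD1 fell more than SRSF7. Neither KAT5 nor RPUSD1 was called for a difference of the TPL effects between the cells. SRSF7 had 51.46 and 46.54 FPKM in NT cells and 8.8 and 8.14 with TPL (log2 -2.54, SE 0.141, adjusted p = 0.000195), and 43.25 and 48.72 against 11.11 and 11.76 in TAM cells (log2 -2.05, SE 0.138, adjusted p = 0.000328). NAA15 fell from 34.15 and 39.14 to 9.38 and 8.38 FPKM in NT cells (log2 -2.05, SE 0.141, adjusted p = 0.00026), whereas NDUFC1 under the same NT + TPL peak had 39.99 and 36.96 against 56.9 and 62.79 (log2 0.65, adjusted p = 0.0213). RPUSD1, which has a pseudouridine synthase domain, fell from 51.21 and 44.61 to 12.58 and 11.22 FPKM. NFATC3, a transcription factor, HNRNPD, which binds AU-rich RNA, and TNRC6A, an Argonaute partner, fell by 1.94, 1.70 and 1.54 on the log2 scale in NT cells. KAT5, the acetyltransferase TIP60, was called down in TAM cells, where 10.13 and 9.24 FPKM became 1.52 and 1.23 and its peak went from 632 to 233 bp, and FIP1L1, of the polyadenylation machinery, fell by 1.39 there.

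**Figure D4:**
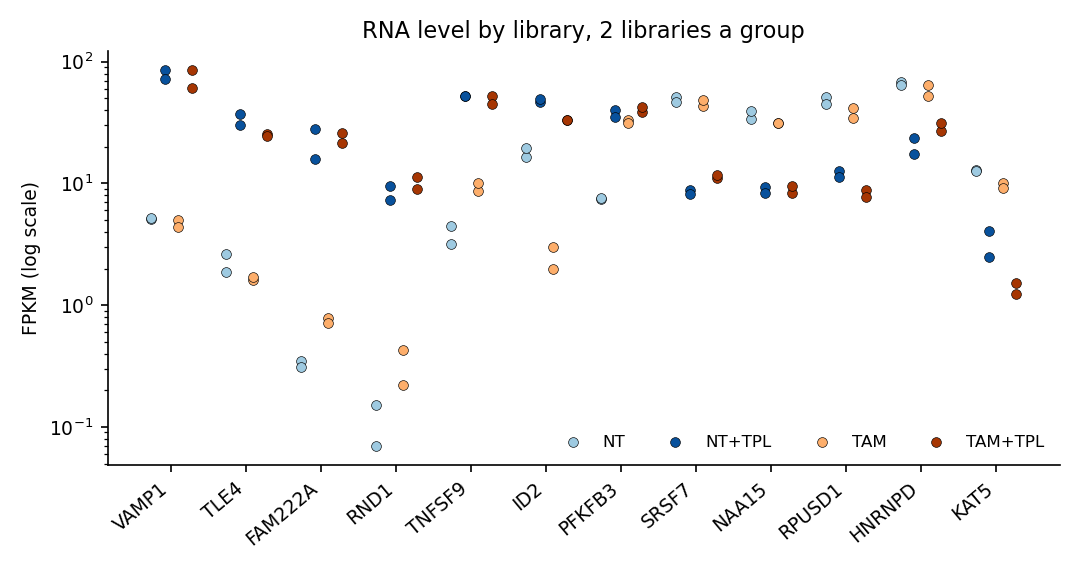
RNA level in FPKM (vertical, log scale) of 12 genes at widened peaks, with 1 point per library and 2 libraries each for NT, NT + TPL, TAM and TAM + TPL. The TPL points of VAMP1, TLE4, FAM222A, RND1 and TNFSF9 lie above the DMSO points of the same cells and those of SRSF7, NAA15, RPUSD1, HNRNPD and KAT5 below them, while PFKFB3 is at 7.46 and 7.56 only in the NT libraries and between 31.3 and 42.5 in the other 6.

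ID2, an inhibitor of basic helix-loop-helix factors, had 16.47 and 19.42 FPKM in NT cells and 46.48 and 49.68 with TPL (log2 1.42, SE 0.193, adjusted p = 0.00221, not called), and 3.01 and 1.98 against 33.18 and 33.07 in TAM cells (log2 3.68, SE 0.226, adjusted p = 0.000284). Its peak was 330 bp at chr2:8822061-8822390 and 774 bp with TPL, and 285 and 613 bp in TAM cells. PFKFB3, a regulator of glycolysis, rose from 7.46 and 7.56 to 40.22 and 35.36 FPKM in NT cells (log2 2.38, SE 0.134, adjusted p = 0.000195) and had 33.43 and 31.32 against 38.33 and 42.48 in TAM cells (log2 0.30, adjusted p = 0.111). Its peak went from 467 to 910 bp in NT cells and was 2142 and 2291 bp in TAM cells. The difference of the TPL effects was called for 0 of the 699 genes by edgeR and for 0% of all genes (0.0885% higher and 0.0767% lower at an adjusted p of 0.05). At an unadjusted p under 0.05 in edgeR, 26 were higher and 37 lower in TAM cells, against 852 and 947 of all 16948 genes. DESeq2 called 2 higher and 2 lower, against 0.553% and 0.43% of all genes. Between TAM and NT cells with DMSO, PFKFB3 was the gene called higher (log2 2.16) and ID2 the gene called lower (log2 -2.83), of 699. The background was 0.378% and 0.277% of all genes, and 2.53% and 2.35% at 0.05, where 14 and 8 genes at widened peaks were called.

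**Figure D5:**
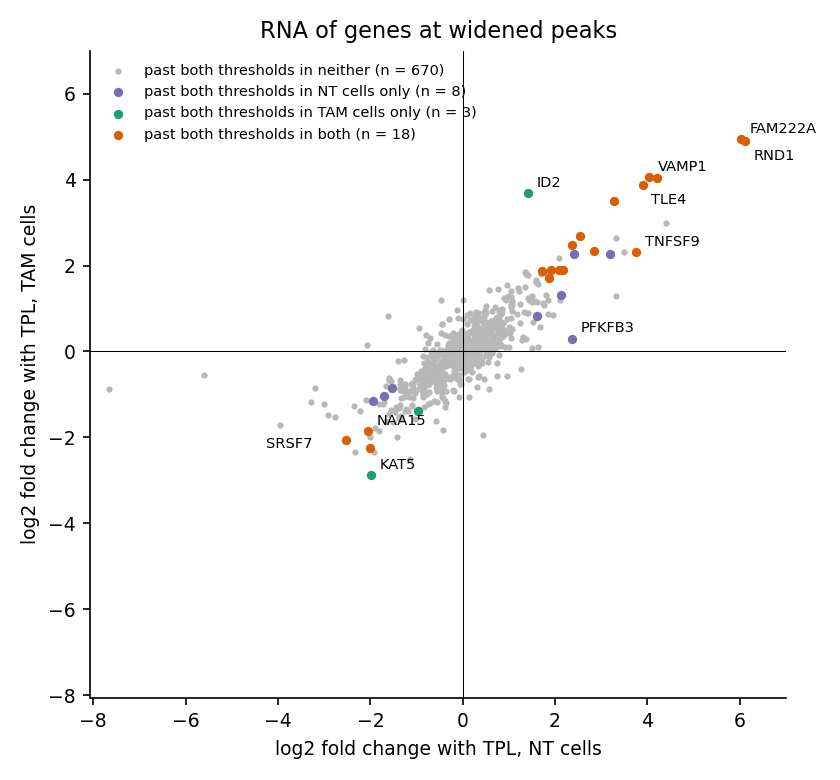
Fitted log2 fold change with TPL in NT cells (horizontal) and in TAM cells (vertical) for the 699 tested genes at widened peaks; colours show the genes called in both (18), in NT cells only (8), in TAM cells only (3) or in neither (670). Genes called in both lie at the upper right, such as FAM222A at 6.03 and 4.94, or at the lower left, such as SRSF7 at -2.54 and -2.05, and ID2 and PFKFB3 lie away from the diagonal. The fitted value of RND1 depends on the prior count.

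The width changes were also set beside the RNA changes, within peaks already chosen by their width ratio. Across 661 genes with 1 canonical TSS, Spearman's rank correlation between the width ratio and the RNA change was 0.0446 for NT and -0.00364 for TAM cells, and between the downstream gain and the RNA change 0.00103 and 0.0547, as descriptions across genes that span only part of the range of ratios. With 1 TSS, the median gains in NT cells were 296 bp downstream and 60 bp upstream for 19 genes called up, 501 and -9.5 bp for 6 called down, and 170 and 146.5 bp for 636 not called. Joined peaks made up 0 of the 19, 3 of the 6 and 213 of the 636. Of the 60 genes whose NT + TPL peak ended more than 1000 bp downstream, 3 rose and 2 fell in NT cells, against 3 and 21 of 196 such genes at kept peaks.

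The widened peaks were also counted in lists of genes from transcription and stress pathways, to be read against the 9.58% of all eligible peaks that were widened. None of these counts was tested. Of the factors TPL acts on or near, CDK7 was the only one of 6 eligible TFIIH genes in the set (474 to 763 bp), and its RNA was 19.38 and 15.69 against 11.34 and 10.12 FPKM in NT cells, which was not called. POLR2C, POLR2J and POLR2K, subunits of RNAPII, were 3 of 9 eligible, and none was called, with log2 fold changes between -0.23 and 0.40 in the 2 kinds of cell. Of 20 pausing and elongation factors, CCNT1 and CCNT2, the cyclins of P-TEFb, LARP7, which holds P-TEFb in its inactive complex, and SUPT16H of the FACT complex were widened. CCNT2 went from 323 to 1086 bp, with 1.56 and 3.43 FPKM against 6.55 and 5.46 in NT cells, which was not called (edgeR adjusted p = 0.0419).

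Splicing regulators held 6 of 17 eligible genes, SRSF7, TRA2A, HNRNPC, HNRNPD, HNRNPM and CLK1, an SR protein kinase. Of these, HNRNPC and HNRNPD were joined peaks, at 1.32 and 1.11 times the summed NT width. CLK1 went from 1084 to 2221 bp in NT and from 1016 to 2360 bp in TAM cells and was not called, at 18.92 and 15.97 against 23.98 and 27.24 FPKM in NT cells. HNRNPC had 222 and 210 against 246 and 205 FPKM. Over the whole list of 25 tested genes, widened or not, 5 fell and 0 rose in NT cells and 4 and 0 in TAM cells, where 2.71% fell and 1.22% rose of all genes in NT cells and 2.04% and 0.844% in TAM cells. FOSB and ATF3 were 2 of 7 immediate early genes. FOSB had 520 and 507 FPKM against 128 and 79.1 in NT cells (log2 -2.32, SE 0.256, adjusted p = 0.00103), just short of a call, although its peak went from 363 to 812 bp. ATF3 had 97.91 and 82.93 against 30.69 and 34.32 (log2 -1.59, adjusted p = 0.00266) while its peak went from 297 to 573 bp.

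Other lists held few widened peaks: SESN2 among 13 p53 targets, HSPE1 among 8 heat shock genes, RPS15 among 24 ribosomal protein genes, H2AZ2 among 38 histone genes, ID2 among 13 ID, KLF, SOX and HES factors, SLC25A53 among 109 solute carriers and none of 5 circadian clock genes. C2H2 zinc finger genes gave 27 of 328. Of the 11 eligible genes that the study's text names, ID2 was widened. Against the share over all eligible peaks, the counts were highest for splicing regulators, RNAPII subunits and immediate early genes, each from under 20 eligible genes, and low for solute carriers and histone genes. The list counts take in joined peaks, such as LARP7 and H2AZ2 at 0.974 and 1.03 times the summed NT width.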

How the data were processed

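RNAPII ChIP-Seq and poly-A RNA-Seq were made in NT and TAM cells with DMSO or TPL. The authors aligned the ChIP reads to hg19, called peaks over input with MACS and deposited, per condition, the starts and ends of peaks named as holding a TSS, counted from 0, with no score or height, and the text counts from 1. The RNA-Seq files, made by the authors with Bowtie2 and RSEM, give expected counts per gene, not normalized, and FPKM. BWA was used to align the RNA reads to the genome. Of 23604 RNA entries, gene IDs gave 21077 a symbol and accessions another 2405, and each gene was read from the entry under its gene ID.

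Peaks were assigned TSSs from GENCODE release 44 on GRCh37. The quasi-likelihood test of edgeR 4.0.16 (R 4.3.3) was run on rounded expected counts with TMM factors and Benjamini-Hochberg adjustment, 4 groups in 1 fit, with DESeq2 1.42.0 and limma 3.58.1 as alternatives. Replicate numbers are shared by the groups, but deviations of same-numbered libraries correlated between -0.113 and 0.0472, so no block was used. Both scripts were tested on simulated data. Precision is limited by 2 libraries per group. Genes are named for the largest ratios in NT (10) and TAM cells (8), up to 6 calls per direction and contrast at a mean of at least 1 FPKM, up to 4 per list, 3 peaks on each side of the threshold and the 5 widest gains. HBEGF, NXF1, PFKFB3 and the other calls listed by name, TMEM223, SLC35B2, EIF4EBP3, NDUFAF3 and the remaining list genes were added after their values were seen. Some promoter sequences and 1 gene list are not reported here. The members, lists and thresholds were chosen with earlier results of these data known.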

Additional observations from a re-analysis of the deposited data

Results flagged for a closer look

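PFKFB3 differed between the cells by the interaction term of the fit, at an adjusted p of at most 0.05 but not at 0.001. The TPL effect in TAM cells minus that in NT cells was -2.08 on the log2 scale (SE 0.182, edgeR adjusted p = 0.0348). Its 2 NT libraries lay below the other 6 libraries, which did not separate by TPL to the same extent. ID2 had the larger effect in TAM cells, with an adjusted p of 0.0523 for the difference.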

How the results depend on the processing

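The lower or the higher limit tried in place of 1.5 gave 1552 or 507 widened peaks, against 985. There were 559 without peaks whose NT + TPL peak overlaps another NT peak, and, in 2 alternatives chosen after seeing the data, 632 against the summed width and 587 against the span of the NT peaks overlapped. In TAM cells 244 passed a limit of 2 (30.5% of 799, 6.7% of all eligible) and 232 without joined peaks. The side of the gain moved from 51.3% downstream to 67.6% without joined peaks.

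Calls of genes at widened peaks with TPL in NT cells, 20 up and 6 down, became 47 and 46 with DESeq2, 32 and 25 with at least 10 counts in every library, 56 and 53 at an adjusted p of 0.05, 42 and 32 with entries summed per symbol (chosen after seeing the data), and 0 and 0 with only the 2 groups in the fit. Over all genes the shares up and down were 5.64% and 9.43% with DESeq2, 3.5% and 7.98% with at least 10 counts and 4.32% and 8.38% with summed entries. The falls were 10 with limma on log2(FPKM + 1), where 3.36% of all genes fell, and 3 without joined peaks. In TAM cells 16 and 5 became 37 and 32, 29 and 19, 40 and 39, and 33 and 27 under the first 4 of these, where 5.22% and 8.22%, 3.02% and 6.97%, 9.05% and 10.1%, and 3.93% and 7.31% of all genes were called. The falls there were 3 with upper quartile normalization, with library size only and without joined peaks, 9 with no filter and 2 with only the 2 groups. Of all genes, 1.24% fell with upper quartile normalization, 1.59% with library size only, 2.21% with no filter and 1.26% with only the 2 groups. With the replicate number as a block, 0 and 0 genes were called in NT, in TAM and between TAM and NT cells at 0.001, but 52 and 51 in NT and 39 and 36 in TAM cells at 0.05, and the numbers do not pair the libraries. The difference of effects gave 0 calls, 2 and 2 with DESeq2, against 0.553% and 0.43% of all genes, and 1 lower at 0.05, against 0.0767%. TAM against NT cells, 1 and 1, became 13 and 8 with DESeq2, 14 and 8 at 0.05, 4 and 4 with at least 10 counts, 4 and 5 with summed entries, 2 and 2 with no filter and with limma on log2(FPKM + 1), 0 up with GAPDH and 0 up with only the 2 groups. Among all genes, 2.35% and 2.14% were called with DESeq2, 2.53% and 2.35% at 0.05, and 1.22% and 1.36% with at least 10 counts. The shares were 1.46% and 1.48% with summed entries, 0.383% and 0.34% with no filter, and 0.525% and 0.478% with limma. With GAPDH and with only the 2 groups, 0.212% and 0.251% of all genes were up.

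Leaving out 1 library gave between 0 and 12 rises and 0 and 2 falls in NT cells, between 0 and 16 and 0 and 5 in TAM cells, 0 for the difference of effects and between 0 and 1 for TAM against NT cells. At 0.05 these were 43 to 53, 40 to 58, 30 to 41 and 25 to 40. None of 47 called fold changes of named genes changed sign in 934 recomputations, of which 426 lost the call, most of them without a library or with the block. The fall of ARID4B in TAM cells (log2 -1.83, not called) was reversed, at 0.22, when its entries were summed. Upper quartile normalization moved the median of all genes from 0.09 to 0.31 in NT cells and GAPDH to -0.26. The causes of these shifts were not tested. With 2 libraries per group and 1 peak list per condition, widths carry no replicate error. Calls at 0.001 could be lost, over all genes as at widened peaks, when a library was left out of the fit.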
